A study of Mus musculus with 6 samples.

Results

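Expression of 32 genes of sterol and fatty acid synthesis was followed through 6 single-cell libraries of mouse leukaemic bone marrow. The members were chosen by name, as the enzymes, control factors and transfer protein of these pathways, and each symbol matched a gene identifier in all 6 libraries, so they are 32 of the 30406 identifiers the libraries share. By role they comprise 7 genes of the mevalonate pathway, 11 that turn farnesyl diphosphate into cholesterol by way of squalene, 4 of control and transfer, 4 that make palmitate or supply it with substrate and reducing power, and 6 desaturases and elongases.

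Cells build cholesterol and fatty acids from the same cytosolic acetyl-CoA. The mevalonate pathway condenses it into isoprenoid units that are joined to farnesyl diphosphate, from which squalene, lanosterol and at last cholesterol are made. Fatty acid synthase builds palmitate, which elongases lengthen and desaturases supply with double bonds. Transcription of both pathways is driven by the SREBP factors, encoded by Srebf1 and Srebf2, which Insig proteins hold back in the endoplasmic reticulum when sterols are plentiful. Dividing cells need both products for new membranes, and in marrow the maturing neutrophil leaves the cell cycle and remodels its membranes.

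Each group held 1 library, made from the marrow of leukaemic mice. The MA9 leukaemia is driven by MLL-AF9, a fusion of a chromatin regulator with a transcriptional elongation factor, and the HM leukaemia by Hoxa9 with its cofactor Meis1. The labels say that each model was made by introducing the oncogene into embryonic stem cells of the mouse. The 6 libraries are labelled MA9 Shp-1 Δ/Δ with Arac+Dox, MA9 Shp-1 f/f with Arac+Dox, MA9 Shp-1 Δ/Δ with PBS, MA9 Shp-1 f/f with PBS, HM Shp-1 f/f with Arac+Dox and HM Shp-1 f/f with PBS. Shp-1, encoded by Ptpn6, is a tyrosine phosphatase that damps signalling in blood cells. In the label f/f its alleles are flanked by recombination sites and undeleted, and in Δ/Δ they are deleted. Arac is cytarabine and Dox, as the labels write it, accompanies it as chemotherapy, with PBS as the vehicle. The f/f background is thus common to both HM libraries and to the undeleted MA9 libraries, while the promoter that drives the deletion, the exons removed, the number of mice pooled and the ages are not given in the sources used here.

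The deposited matrices held 5364 to 12474 barcodes, of which those with 500 or more genes detected and no more than 10% of UMIs from mitochondrial genes were kept as cells. This left 8614 to 9750 cells in the MA9 libraries, 4676 in the HM Arac+Dox library and 2755 in the HM PBS library, where 74.7% of barcodes were over the mitochondrial limit. Kept UMIs ran from 15111411 in the HM PBS library to 103581646 in the MA9 library labelled Δ/Δ Arac+Dox. Pairs of MA9 libraries shared 18 to 27 kept barcodes, the HM pair shared 6, and no MA9 library shared one with an HM library. Ptpn6 stood at 43.6 CPM, the counts of a gene per 1e+06 UMIs, in the MA9 library labelled Δ/Δ Arac+Dox, 57.7 in f/f Arac+Dox, 171.9 in Δ/Δ PBS, 185.8 in f/f PBS, 113.0 in HM Arac+Dox and 134.7 in HM PBS. The level thus goes against 2 MA9 labels, being low in an f/f library and near that of f/f PBS in a Δ/Δ library, so the libraries are named by their labels only. An exchange of the labels f/f Arac+Dox and Δ/Δ PBS would put both libraries low in Ptpn6 under Δ/Δ, and letter codes that the depositors gave the MA9 libraries likewise group f/f PBS with Δ/Δ PBS and both Arac+Dox libraries with each other. Whether labels were exchanged was not tested. If they were, the MA9 pairs given below as differing in genotype would differ in treatment, those given as differing in treatment would differ in genotype, and only the pair of Δ/Δ Arac+Dox and f/f PBS would stay as labelled. These 3′ reads need not cover the deleted exons. Both MA9 libraries low in Ptpn6 are labelled Arac+Dox, so within MA9 the treatment label and the Ptpn6 level cannot be told apart.

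Promoter sequences were matched in RefSeq on GRCm38.p6 for 25 of the 32 members, as the 250 bases before the annotated start. The 7 without a match were Fdps, Fdft1, Sqle, Stard4, Scd1, Scd2 and Fads1. The 3 printed here belong to members whose levels separate mature neutrophils from the other marrow cells in opposite directions: Fasn, the fatty acid synthase, and Elovl5, an elongase of polyunsaturated fatty acids, were higher outside mature neutrophils, and Sc5d, the lathosterol oxidase, was higher in them. They run 5′ to 3′ on the gene's own strand, at chr11:120824548-120824797 on the minus strand for Fasn, chr9:77917115-77917364 on the plus strand for Elovl5 and chr9:42264301-42264550 on the minus strand for Sc5d. Capitals mark every match, on either strand, to CACGTG, to CCAAT or its complement ATTGG, and to GGGCGG or its complement CCGCCC. Of these, CACGTG is an E-box, a kind of site SREBP factors can use, and the other motifs are the CCAAT box and the GC box, read by NF-Y and Sp1.
Fasn: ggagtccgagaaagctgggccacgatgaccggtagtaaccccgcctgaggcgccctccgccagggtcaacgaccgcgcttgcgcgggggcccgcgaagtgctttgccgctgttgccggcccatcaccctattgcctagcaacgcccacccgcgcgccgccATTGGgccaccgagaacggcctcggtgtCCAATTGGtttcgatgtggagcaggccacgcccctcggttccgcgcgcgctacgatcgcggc
Elovl5: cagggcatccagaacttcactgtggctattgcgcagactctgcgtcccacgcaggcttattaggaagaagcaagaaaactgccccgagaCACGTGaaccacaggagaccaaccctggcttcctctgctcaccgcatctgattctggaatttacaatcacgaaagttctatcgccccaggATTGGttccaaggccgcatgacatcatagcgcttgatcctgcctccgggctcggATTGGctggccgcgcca
Sc5d: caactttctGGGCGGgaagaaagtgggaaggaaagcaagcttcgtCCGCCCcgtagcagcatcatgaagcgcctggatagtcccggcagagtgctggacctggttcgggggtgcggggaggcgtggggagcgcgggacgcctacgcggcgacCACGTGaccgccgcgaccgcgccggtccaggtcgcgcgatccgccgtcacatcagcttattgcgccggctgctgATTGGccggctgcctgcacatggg

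The Fasn window held 3 CCAAT matches, 2 of which overlap in CCAATTGG, the Elovl5 window 1 CACGTG and 2 CCAAT, and the Sc5d window 1 CACGTG, 1 CCAAT and 2 GC boxes. CCAAT was found in 18 of the 25 member promoters (72%), against 34.5% of all 27025 promoters of the same length, and the GC box in 19 (76%), against 32.9%. CACGTG was found in 4 (16%), namely Elovl5, Hsd17b7, Insig1 and Sc5d, against 6.05% of all promoters. CACCCCAC, the core of the sterol regulatory element searched on both strands, was found in 2 (8%), Acat2 and Hmgcs1, against 2.51%. A match describes letters in this window and is not shown to be a site.

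Across whole libraries, the member with the highest CPM in every library was Fdps, the farnesyl diphosphate synthase at chr3:89093588-89101959 on the minus strand (GENCODE vM21, GRCm38). It had 162.8 CPM in the MA9 library labelled Δ/Δ Arac+Dox, 301.4 in f/f Arac+Dox, 171.3 in Δ/Δ PBS, 141.6 in f/f PBS, 60.0 in HM Arac+Dox and 51.9 in HM PBS. The library labelled f/f Arac+Dox stood above the other 5, and both HM libraries stood below all 4 MA9 libraries. Fdps shares 7512 bases on its own strand with the gene model Gm43738, so the reads of this pair may be divided between them. CPM from 3′ reads is not scaled by length and is compared here within a gene only.

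The summed mevalonate genes came to 242.5 CPM in the MA9 library labelled Δ/Δ Arac+Dox, 400.1 in f/f Arac+Dox, 249.3 in Δ/Δ PBS, 219.2 in f/f PBS, 104.5 in HM Arac+Dox and 110.4 in HM PBS. The sum over palmitate synthesis was 122.4, 80.9, 103.7 and 76.2 CPM in the MA9 libraries in the same order, and 48.4 and 45.3 in HM Arac+Dox and HM PBS. It was the 2 Δ/Δ libraries that were highest here, whereas the f/f Arac+Dox library was highest in the mevalonate sum. Control and transfer, which covers Srebf1, Srebf2, the SREBP-retaining protein Insig1 and the cholesterol carrier Stard4, spanned only 65.0 to 75.4 CPM over all 6 libraries. Such sums mix cell types, and in them fewer cells of a type and less RNA per cell cannot be told apart.

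**Figure D1:**
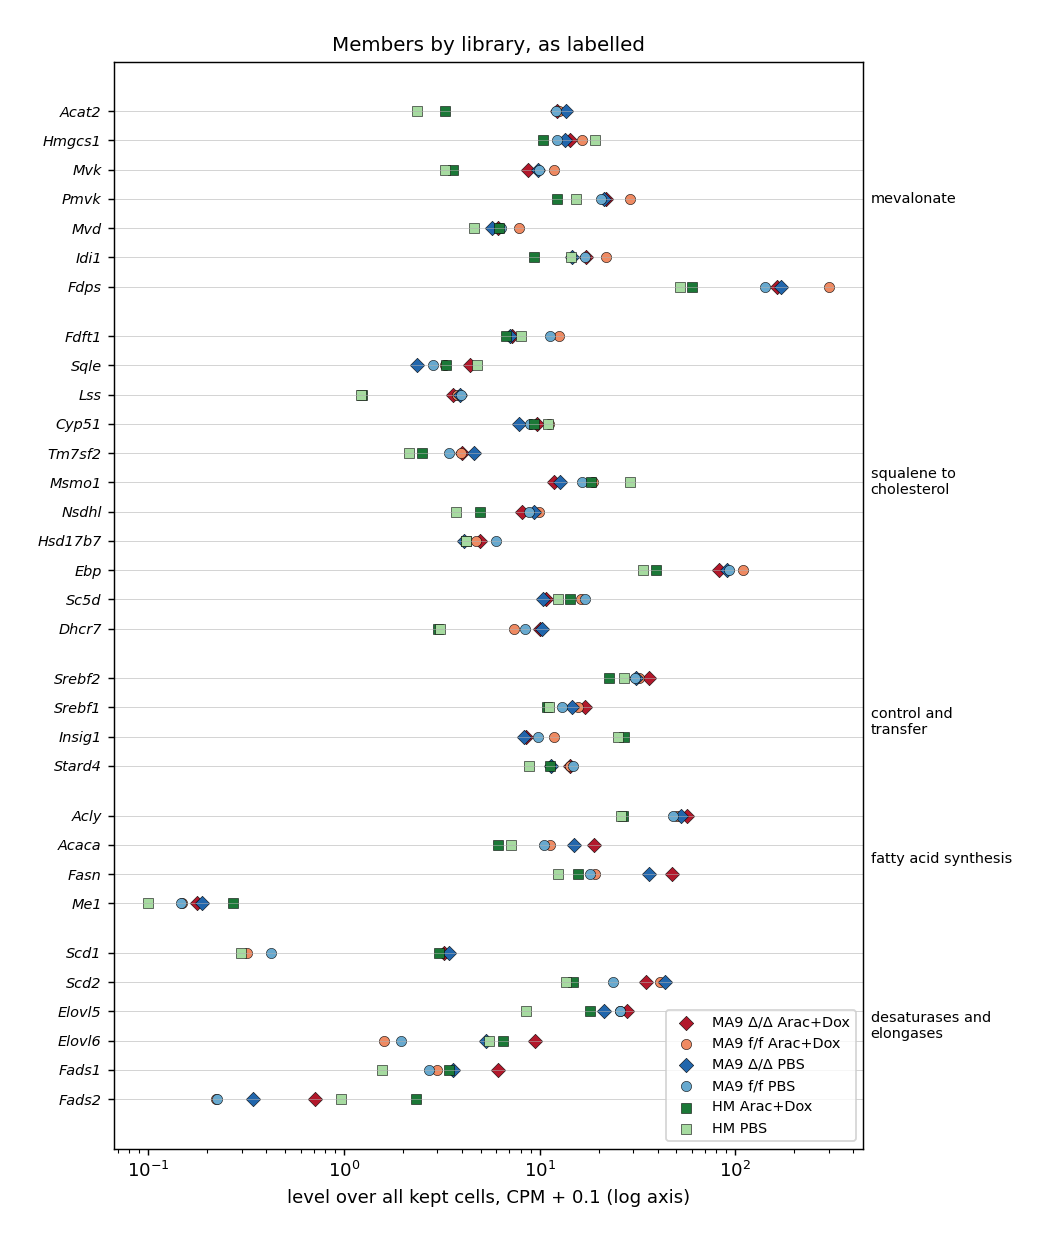
CPM plus 0.1 on a log axis for each of the 32 members, grouped by role, with 1 point for each of the 6 libraries. Fdps lies between 51.9 and 301.4 CPM, and Me1 is at or below 0.171 CPM throughout.

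Me1, the cytosolic malic enzyme, reached at most 0.171 CPM and had no UMI in the HM PBS library. Scd1, a stearoyl-CoA desaturase, had 3.13 CPM in the MA9 library labelled Δ/Δ Arac+Dox, 0.220 in f/f Arac+Dox, 3.35 in Δ/Δ PBS, 0.323 in f/f PBS, 2.94 in HM Arac+Dox and 0.199 in HM PBS. Fads2, a fatty acid desaturase, lay between 0.122 and 2.22 CPM. These 3 members and Sqle, the squalene epoxidase, at 2.25 to 4.70 CPM, were too low for a comparison of whole libraries.

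Cells were next assigned to gates by marker genes, so that levels could be compared between cell types. Cells were left out where a lineage gate, such as B cell, T cell or macrophage, met another lineage gate or neutrophil markers. Those with both progenitor and monocyte markers were left out too. Otherwise lineage and neutrophil gates took precedence over progenitor, monocyte and promyelocyte markers. The promyelocyte gate came last, so cells of other gates can also carry promyelocyte markers. The promyelocyte gate used granule genes such as Mpo and Elane, the immature neutrophil gate Camp, Ngp and Ltf, the mature neutrophil gate Cxcr2 and Retnlg, and the monocyte gate Csf1r and Ccr2. Every library held at least 50 cells in the immature neutrophil, mature neutrophil and monocyte gates. The stem and progenitor gate, set by genes such as Cd34, Flt3 and Kit, held 335 cells in the MA9 library labelled Δ/Δ Arac+Dox, 25 in f/f Arac+Dox, 2078 in Δ/Δ PBS, 289 in f/f PBS, 85 in HM Arac+Dox and 4 in HM PBS. Which gated cells carry the oncogene is not given in these data. For the tests, UMIs were summed per library and gate and compared within libraries by edgeR's quasi-likelihood test with Benjamini-Hochberg adjustment over all genes, so the replicate is the library. Higher and lower below mean past an adjusted p of 0.05 in that test, and fold changes are on the log2 scale. Nothing in the sources used here says that the 6 libraries come from separate mice, and p-values measure only the spread between these libraries.

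**Figure D2:**
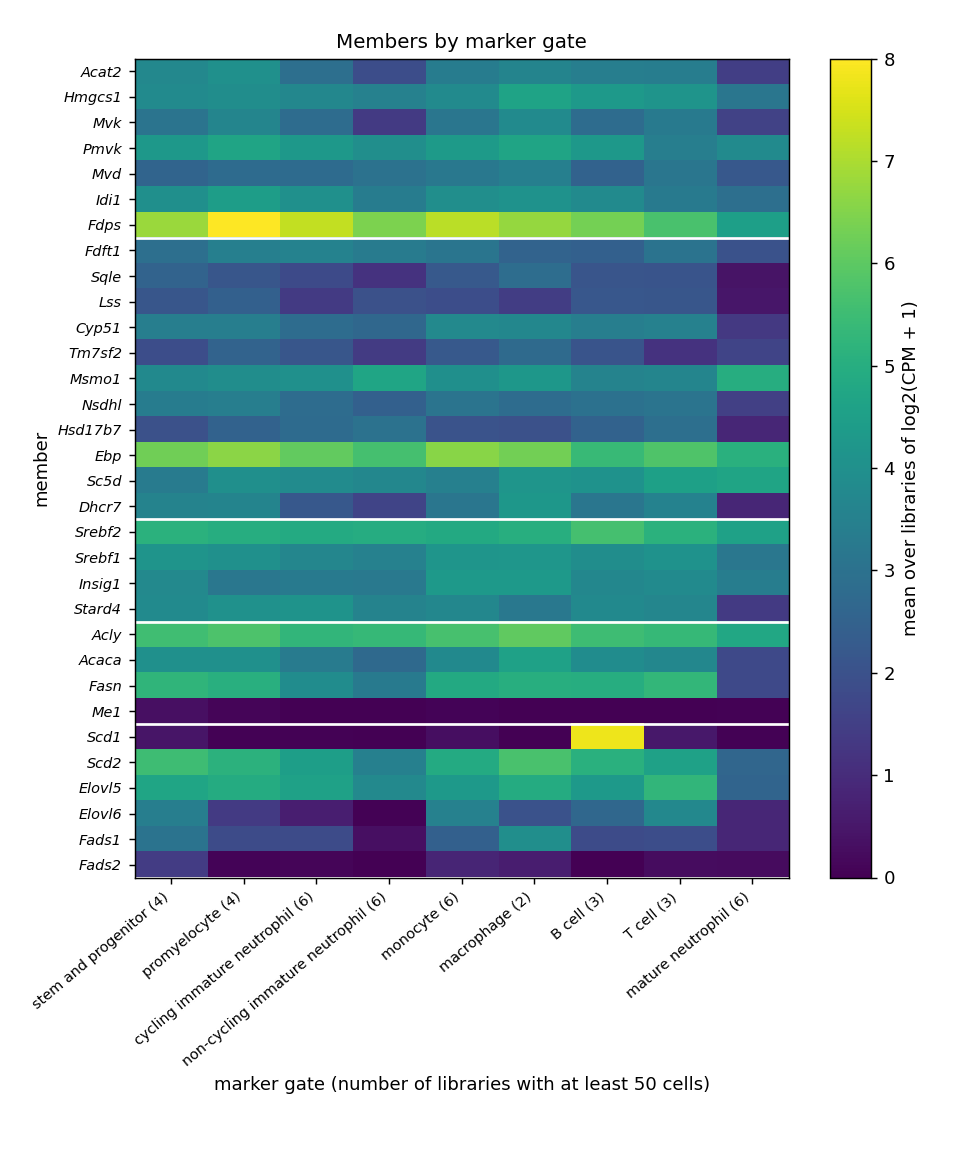
Mean over libraries of log2(CPM + 1) for each member in 9 gates, with the number of libraries behind each gate in its label. Brighter cells are higher levels. Most members are lowest in the mature neutrophil gate, while Msmo1 and Sc5d are highest there, and Scd1 is bright in the B cell gate alone.

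Against mature neutrophils, 11 members were higher and 2 lower in the stem and progenitor gate among 26 tested (4 libraries), where 36.1% of all genes were higher and 28.5% lower. In the immature neutrophil gate 13 were higher and 2 lower among 25 (6 libraries), against 38.4% and 25.3% of all genes. In the monocyte gate 12 were higher and 2 lower among 28 (6 libraries), against 38.3% and 28.8%. The median log2 fold change of the members tested was 0.92, 0.90 and 0.83 in the 3 comparisons, and that of all genes 0.24, 0.28 and 0.25. A member had to pass a filter on low counts, so those tested are not all members, and Sqle, Me1, Scd1 and Fads2 passed in none of the 3. Where tested, Acaca, Acat2, Dhcr7, Elovl6, Fads1, Fasn, Hsd17b7, Mvk, Nsdhl and Stard4 passed it through the gates in which they are high. The counts and medians above include these members, and for them only describe levels. Acaca, Acat2, Elovl5, Fasn, Fdps, Scd2 and Stard4 were higher in all 3 comparisons, and Msmo1 and Sc5d were lower in all 3. Acaca, Acat2, Fasn and Stard4 had few UMIs in the mature gates, as did Scd2 and Elovl5 in the MA9 libraries labelled Arac+Dox, as given below.

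Among mevalonate genes, Fdps had 130, 132, 148 and 59.2 CPM in the stem and progenitor gates of the libraries labelled MA9 Δ/Δ Arac+Dox, MA9 Δ/Δ PBS, MA9 f/f PBS and HM Arac+Dox, against 26.9, 15.6, 17.4 and 15.4 CPM in the mature neutrophil gates of the same libraries. The groups did not overlap. The log2 fold change was 1.99 (SE 0.269, adjusted p = 2.04e-05) there, 2.46 (SE 0.219, adjusted p = 2.81e-07) in immature neutrophils and 2.01 (SE 0.230, adjusted p = 3.22e-07) in monocytes, each by edgeR. Acat2, the cytosolic acetoacetyl-CoA thiolase, had log2 fold changes of 1.65, 1.34 and 1.37 in the same order, and has a near-identical copy in Acat3, so its counts are uncertain. Its mature gates held 0 UMIs in MA9 Δ/Δ Arac+Dox, 1 in MA9 f/f Arac+Dox and 3 in each HM library. Acat2 thus passed the filter on low counts through the gates where it is high, and its fold changes only describe levels. Mvk, the mevalonate kinase, had a log2 fold change of 1.26 in both immature neutrophils and monocytes. Its mature gates held 1 UMI in each MA9 library labelled Arac+Dox and 7 in each HM library, so the same limit holds. Idi1, the isopentenyl-diphosphate isomerase, was higher by 0.73 in immature neutrophils alone among the 3 tests. Hmgcs1, the HMG-CoA synthase at the head of the pathway, Pmvk, the phosphomevalonate kinase, and Mvd, the decarboxylase after it, passed in none.

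The branch from squalene to cholesterol held genes of both directions. Msmo1, the methylsterol monooxygenase at chr8:64718139-64733792, had 9.98, 11, 18.1 and 13.4 CPM in the progenitor gates of the libraries labelled MA9 Δ/Δ Arac+Dox, MA9 Δ/Δ PBS, MA9 f/f PBS and HM Arac+Dox, against 37.6, 16.9, 44.1 and 20.7 CPM in their mature neutrophil gates. It was lower in all 4 libraries, by a log2 fold change of -1.58 (adjusted p = 0.000459 by edgeR), and the progenitor value of f/f PBS lay above the mature value of Δ/Δ PBS. In monocytes it averaged 14.9 ± 2.49 CPM, against 32.1 ± 10.8 in mature neutrophils (SD, n = 6 libraries), a log2 fold change of -1.66 (adjusted p = 6.31e-06 by edgeR), and in immature neutrophils 17.5 ± 2.39 CPM, a log2 fold change of -0.87 (adjusted p = 0.00741 by edgeR; lower in 5 of 6 libraries). Sc5d, which acts a few steps further along, was lower in the same gates.

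In the progenitor gates Sc5d had 9.05, 7.38, 11.4 and 8.91 CPM in the libraries labelled MA9 Δ/Δ Arac+Dox, MA9 Δ/Δ PBS, MA9 f/f PBS and HM Arac+Dox, against 10.8, 40.4, 40.1 and 24.7 CPM in their mature neutrophil gates. Its log2 fold change was -2.32 there, -1.01 in immature neutrophils and -2.04 in monocytes, with adjusted p-values of 2.55e-05, 0.000733 and 8.23e-07 by edgeR. The mature gate of the MA9 library labelled Δ/Δ Arac+Dox, where Sc5d was near its progenitor level, is the smallest, with 66 cells, 185989 UMIs and 1 UMI worth 5.38 CPM. Other enzymes of the branch went the other way. Ebp, the sterol isomerase, was higher by 0.89 in immature neutrophils and 0.91 in monocytes. Dhcr7, the last reductase, had log2 fold changes of 2.76 in progenitors and 1.95 in monocytes. Its mature gates held 0 UMIs in both MA9 libraries labelled Arac+Dox and 2 and 5 in HM Arac+Dox and HM PBS. Dhcr7 thus passed the filter on low counts through the gate where it is high, and its values only describe levels. Cyp51, the lanosterol demethylase, was higher by 1.70 in progenitors, a call lost under 3 alternatives, and gained a call in monocytes under 7. Fdft1, the squalene synthase, was higher by 0.90 in immature neutrophils, where Nsdhl, a sterol dehydrogenase, and Hsd17b7, a ketosteroid reductase, had log2 fold changes of 0.95 and 1.68. In the mature gates of Δ/Δ Arac+Dox, f/f Arac+Dox, HM Arac+Dox and HM PBS, Nsdhl had 0, 1, 15 and 6 UMIs and Hsd17b7 0, 0, 10 and 12. The limit given for Dhcr7 holds for both. Fdft1 and Cyp51 had 0 or 1 UMI in the mature gates of both MA9 libraries labelled Arac+Dox.

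Of the genes of control and transfer, Stard4 had log2 fold changes of 2.78, 2.53 and 1.60 in progenitors, immature neutrophils and monocytes. Its level in mature neutrophils was 0 in both libraries labelled Δ/Δ and at most 8.25 CPM elsewhere, against 10.3 to 18.3 CPM in immature neutrophils. The mature gates held 3 Stard4 UMIs in f/f Arac+Dox and 12 and 14 in HM Arac+Dox and HM PBS. Stard4 thus passed the filter on low counts through the gates where it is high, and its fold changes only describe levels. Srebf1, Srebf2 and Insig1 passed in none of the 3 comparisons as tested here, but under other settings Srebf1 passed in monocytes in 5 alternatives and in each of the other 2 gates in 1, Srebf2 in monocytes in 1, and Insig1 in immature neutrophils in 2.

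For palmitate synthesis, Fasn, at chr11:120805846-120824547, had 57.8, 35.4, 25.2 and 33.4 CPM in the progenitor gates of the libraries labelled MA9 Δ/Δ Arac+Dox, MA9 Δ/Δ PBS, MA9 f/f PBS and HM Arac+Dox, against 0, 1.30, 1.34 and 3.05 CPM in their mature neutrophil gates. The log2 fold change was 3.33 (SE 0.397) there, 2.12 in monocytes and 1.23 in immature neutrophils, and no progenitor value came near a mature one. The mature values of these 4 libraries rest on 0, 1, 1 and 18 UMIs, with 4 in f/f Arac+Dox and 21 in HM PBS. Fasn thus passed the filter on low counts through the gates where it is high. Its fold changes describe levels and are given without p. Acaca, the acetyl-CoA carboxylase that feeds Fasn, was higher by 1.38, 1.07 and 1.27 in progenitors, immature neutrophils and monocytes. Its mature gates held 0 to 16 UMIs, so the same limit holds. Acly, which makes cytosolic acetyl-CoA from citrate, passed in none.

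Of the 6 desaturases and elongases, Scd2 and Elovl5 could be tested in all 3 comparisons and Elovl6 and Fads1 in progenitors and monocytes. Scd2, the stearoyl-CoA desaturase at chr19:44293674-44306864, was higher by 2.00, 1.30 and 1.49, and Elovl5 by 1.44, 2.02 and 1.43. The values of Scd2 and Elovl5 are log2 fold changes past an adjusted p of 0.05 by edgeR. The mature gates of Δ/Δ Arac+Dox, f/f Arac+Dox, HM Arac+Dox and HM PBS held 1, 1, 35 and 15 UMIs of Scd2. For Elovl5 they held 3, 2, 39 and 6. In those MA9 gates both members thus rest on few counts. Elovl6, which lengthens palmitate, had log2 fold changes of 2.51 in progenitors and 2.59 in monocytes, and Fads1, a front-end desaturase, 2.74 and 1.80. In the mature neutrophil gates Elovl6 had at most 6 UMIs and Fads1 at most 4 in any library, and both had 0 in f/f Arac+Dox. Elovl6 and Fads1 thus passed the filter on low counts through the gate where they are high, and their fold changes only describe levels.

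Median UMIs per cell were 1742.5 to 4444 in the mature neutrophil gates, against 7406 to 36769 in the progenitor, 5811 to 16556 in the immature neutrophil and 6179.5 to 15216 in the monocyte gates, and the part of depth in these results was not tested. Scaling by TMM put the log2 fold changes of the 3 comparisons at a mean of -0.59, -0.10 and -0.64 from those on plain CPM, so values within that shift of 0 carry no direction here.

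**Figure D3:**
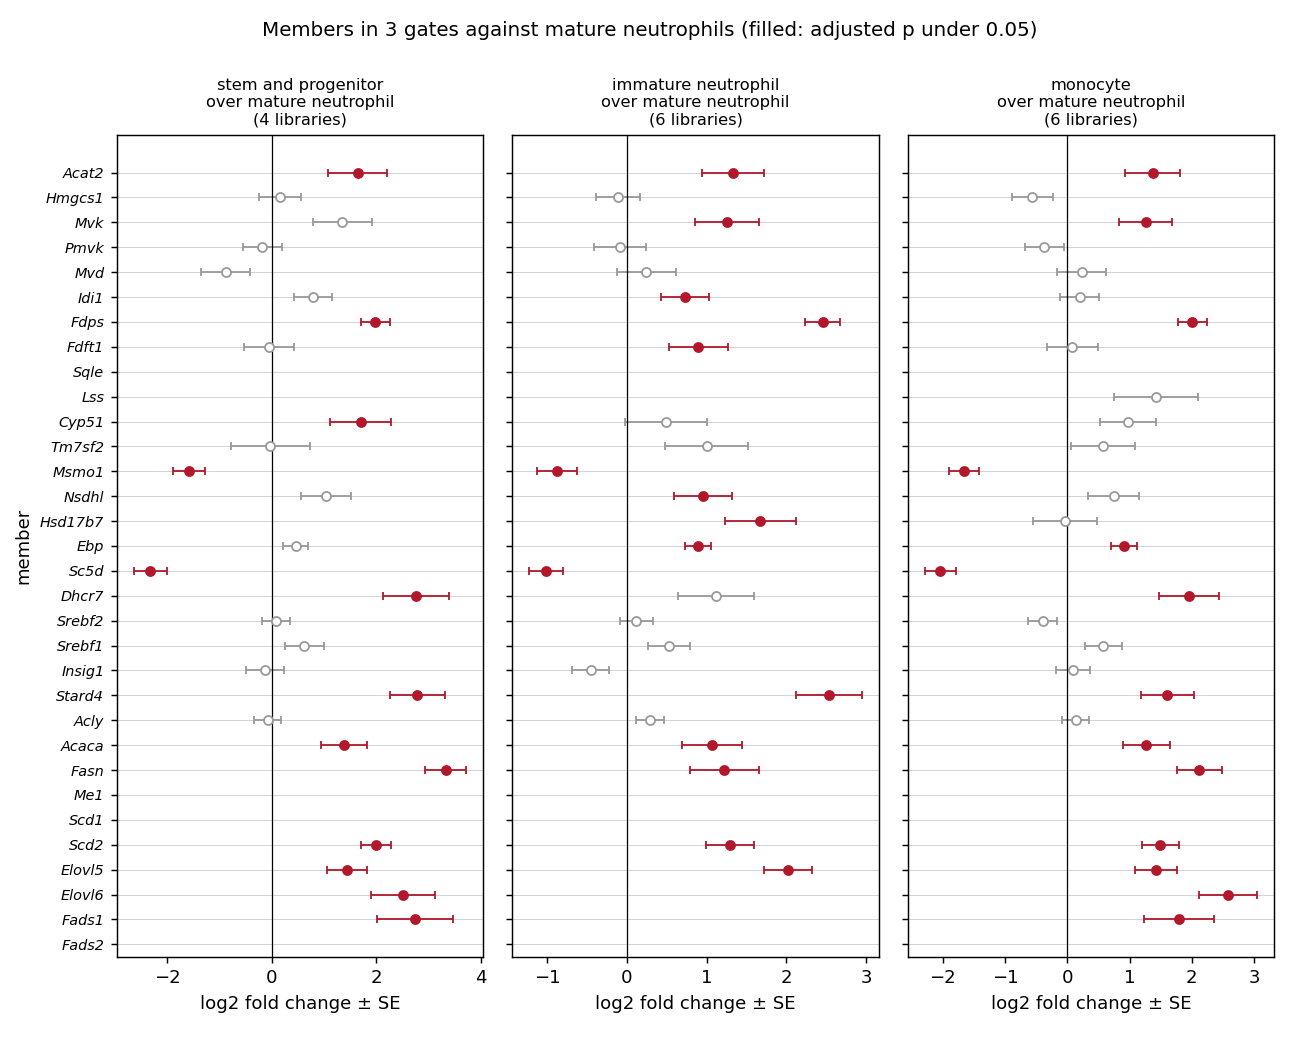
Log2 fold change with its standard error for each member tested in the stem and progenitor, immature neutrophil and monocyte gates against the mature neutrophil gate, with filled red points past an adjusted p of 0.05 by edgeR. Fasn, Stard4 and Fdps lie far to the right, and Msmo1 and Sc5d lie to the left of 0 in each panel.

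Neighbouring pathways were read from 5 further lists, whose counts stand against 36.1% of all genes higher and 28.5% lower in progenitors, 38.4% and 25.3% in immature neutrophils and 38.3% and 28.8% in monocytes. Of the list for sterol regulation and uptake, 6 were higher and 2 lower among 14 tested in progenitors, 4 and 2 among 13 in immature neutrophils, and 6 and 0 among 14 in monocytes. Scap, the SREBP escort, was higher by 1.82 in progenitors and 0.97 in monocytes. The efflux and LXR target list had 0 higher and 6 lower among 8, 0 and 4 among 7, and 1 and 4 among 8 in progenitors, immature neutrophils and monocytes. In progenitors its lowest were the lipoprotein gene Apoe at -3.42, Mylip, a ubiquitin ligase gene, at -2.11, the exporter Abca1 at -2.03 and Soat1, which esterifies cholesterol, at -2.01.

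Isoprenoid branch genes were higher in 8 and lower in 0 of 13 in progenitors, 8 and 1 of 13 in immature neutrophils and 9 and 0 of 13 in monocytes. The farnesyltransferase subunit Fntb, at 3.06, and Pdss1, which makes the side chain of coenzyme Q, at 2.80, led it in progenitors. The list for fatty acid entry, elongation and activation was divided, with 8 higher and 4 lower of 17, 6 and 3 of 17, and 7 and 6 of 17. Lipid storage and uptake was lower in 10 of 13, 8 of 12 and 10 of 14, and higher in 1, 3 and 2. G0s2, an inhibitor of fat breakdown, stood at -5.56 in progenitors and -5.63 in monocytes, Dgat2, a triglyceride synthase, at -4.65 and -4.15, and Mgll, which cleaves monoglycerides, at -4.57 and -5.36.

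Within immature neutrophils, cells with at least 3 of 10 cell cycle markers were set against those with fewer. Among 26 members tested in 6 libraries, 4 were higher in cycling cells and 2 lower, against 19.8% and 19.0% of all genes, and 7 passed an unadjusted p of 0.05. Fdps was higher by 0.54 (adjusted p = 0.00369), Scd2 by 0.68 (adjusted p = 0.00307), Mvk by 0.73 (adjusted p = 0.0158) and Acaca by 0.50 (adjusted p = 0.0262) by edgeR. Msmo1 averaged 15.4 ± 2.76 CPM in cycling cells and 25.2 ± 3.21 CPM in non-cycling cells (SD, n = 6 libraries) and was lower in 6 of 6, with a log2 fold change of -0.98 (adjusted p = 3.1e-05 by edgeR). Mvd was lower by a log2 fold change of -0.50 (adjusted p = 0.0327 by edgeR). The 4 members that were higher lie in different branches, and the share of members called in each direction was below that of all genes.

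Scd1 was a desaturase of the B cell gate in these libraries. It had 221 CPM (95% interval 196 to 249) in the B cell gate of the MA9 library labelled Δ/Δ Arac+Dox, 221 (195 to 249) in that of Δ/Δ PBS and 227 (186 to 274) in that of HM Arac+Dox, with 445, 420 and 134 cells. All other gates together had 0.0694 to 0.575 CPM in the 6 libraries. The B cell gate held 85.5%, 87.7% and 68.4% of all Scd1 UMIs of these 3 libraries in the same order.

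A Scd1 UMI was found in 42.0% of B cell gate cells (exact 95% interval 37.4 to 46.8) in the MA9 library labelled Δ/Δ Arac+Dox, 42.4% (37.6 to 47.3) in Δ/Δ PBS and 53.0% (44.2 to 61.7) in HM Arac+Dox. In the T cell gates of the same libraries it was found in 0 of 159 cells, 2 of 247 cells and 0 of 548 cells, although median depth was higher there, at 2751, 2914 and 5187.5 UMIs, against 1289, 1623 and 2229.5 in the B cell gates. Among 21 members tested between these gates, 2 were higher in B cells and 1 lower, against 8.31% and 8.79% of all genes. Scd1, at 223 ± 4.13 CPM in B cells and 0.639 ± 1.11 CPM in T cells (SD, n = 3 libraries), is 1 of the 2. It passed the filter on low counts through the B cell gate alone and the comparison was chosen after its values had been seen, so its levels are given as a description with no fold change or p. Fdps was higher by 0.58 (adjusted p = 0.0471) and Elovl5 lower, at 19.96 ± 6.95 against 38.5 ± 11.8 CPM, a log2 fold change of -1.07 (adjusted p = 0.00374), both by edgeR.

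Scd2, the neighbouring desaturase gene on chromosome 19, had 32.8, 34.1 and 32.1 CPM in the same 3 B cell gates. In the other gates of at least 50 cells in these libraries it ran from 0, in the cells of Δ/Δ PBS with immature and mature neutrophil markers, to 70.8 CPM, in the macrophages of Δ/Δ PBS. B cell markers summed to 3561, 4756 and 3854 CPM there, T cell markers to 11.2, 11.7 and 38.5, and promyelocyte markers to 12586, 6075 and 6848 CPM. The part of that promyelocyte RNA in the values of the B cell gate was not tested. Between the B and T cell gates, efflux genes were higher in B cells in 4 and lower in 0 of 8 tested, against 8.31% and 8.79% of all genes. Apoe at 4.16 and Abca1 at 3.06 led them, in the same comparison chosen after values had been seen.

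**Figure D4:**
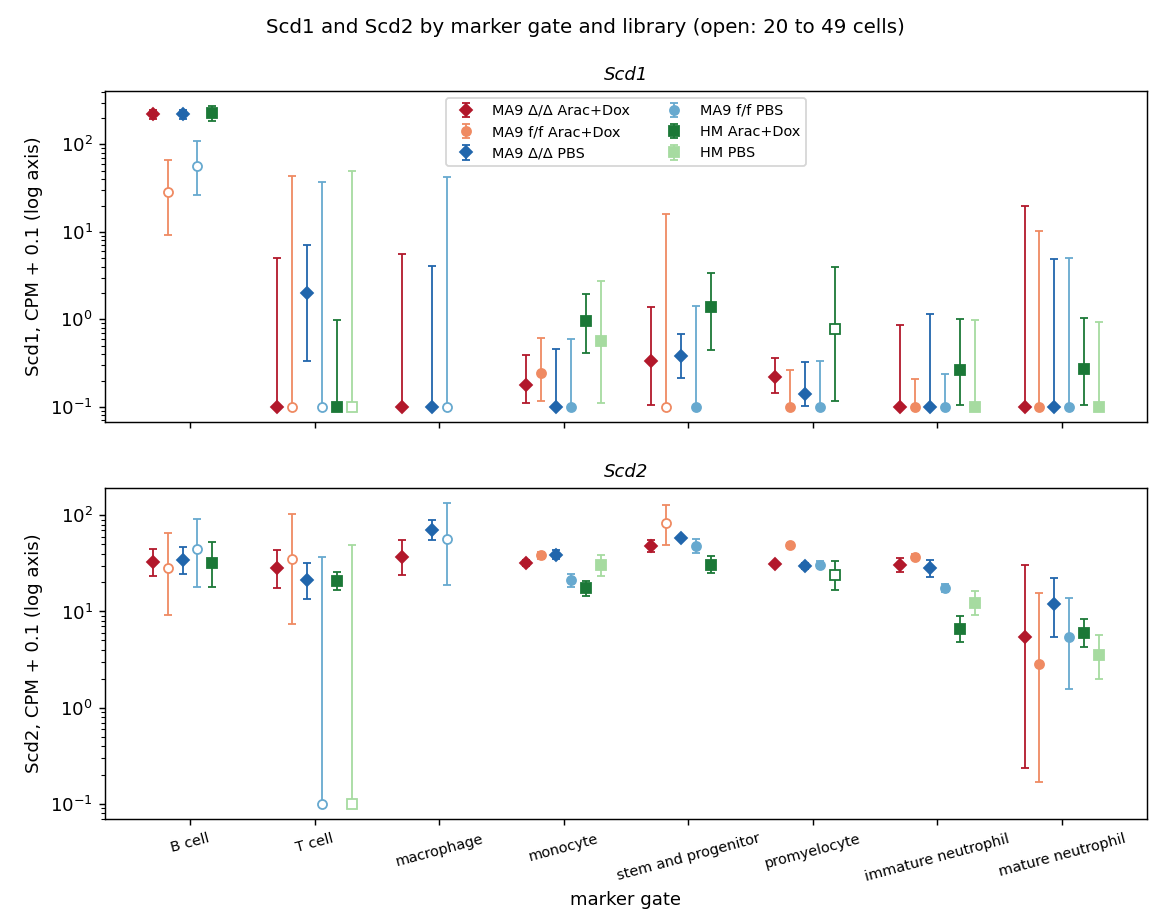
CPM plus 0.1 on a log axis of Scd1 (top) and Scd2 (bottom) by gate and library, with 95% counting intervals and open symbols for gates of 20 to 49 cells. Scd1 is at 221 to 227 CPM in the 3 B cell gates of at least 50 cells and far lower in the myeloid and T cell gates, while Scd2 is at 32.1 to 34.1 CPM in the same 3 gates.

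Whole libraries were then compared in pairs. With 1 library per group there is no test, and a member was called where it differed at least 1.5-fold, its exact 95% counting interval excluded 0 on the log2 scale, and it reached 5 CPM in either library. Log2 ratios below are first-named over second-named, with that interval in brackets, and cover counting error only. The pairs share libraries, so their values are not independent of each other.

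The MA9 libraries labelled Δ/Δ PBS and f/f PBS differ by label in genotype without chemotherapy, although Ptpn6 was at 171.9 CPM in Δ/Δ PBS and 185.8 in f/f PBS. Fasn had 36.2 CPM in Δ/Δ PBS and 18.0 in f/f PBS (1.01 [0.91, 1.10]), Scd2 43.8 and 23.6 (0.89 [0.80, 0.98]) and Elovl6 5.23 and 1.86 (1.49 [1.20, 1.79]). Fdft1 had 6.95 and 11.1 (-0.68 [-0.84, -0.52]) and Sc5d 10.3 and 16.9 (-0.71 [-0.83, -0.58]). These 3 members called higher, of fatty acid synthesis, and 2 called lower, of sterol synthesis, were 12% and 8% of the 25 measured, against 15.1% and 8.75% of 9378 genes. The share of members called was thus no larger than that of all genes. The member median was 0.03, against 0.15 over all genes, and scaling by the median of ratios would move every value by -0.17.

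Cell composition differed between these libraries, with the immature neutrophil gate at 3.96% of kept cells in Δ/Δ PBS and 41.1% in f/f PBS, and the progenitor gate at 22.0% and 3.36%. Within gates, Fasn was at 39.6 and 16.4 CPM in monocytes (1.27 [0.98, 1.58]), 42.3 and 23.2 in promyelocytes (0.86 [0.69, 1.04]) and 23.6 and 14.6 in immature neutrophils (0.70 [0.34, 1.04]) of Δ/Δ PBS and f/f PBS. It was thus higher in Δ/Δ PBS in each of these gates, and with equal weight for each gate its log2 ratio was 0.76, against 0.37 for Scd2, -0.03 for Fdft1 and -0.11 for Sc5d. Cells with at least 3 cell cycle markers made up 60.4% of the monocyte gate in Δ/Δ PBS and 27.8% in f/f PBS. They made up 77.5% and 55.4% of promyelocytes and 54.2% and 50.7% of immature neutrophils. The part of cycling in the ratios within gates was not tested. In the monocyte gate 4 of 25 members were called higher and 1 lower, against 13.2% and 13% of all genes. They were Fasn, Acaca at 16.9 and 9.27 CPM (0.87 [0.46, 1.29]), Scd2 at 38.9 and 21.1 (0.88 [0.61, 1.16]) and Fads1 at 5.21 and 2.01 (1.37 [0.52, 2.30]), with Insig1 lower at -0.66 [-1.05, -0.27]. In immature neutrophils 4 of 25 were called higher and 0 lower, against 5.85% and 5.21% of all genes: Fdps at 199.8 and 109.8 CPM (0.86 [0.74, 0.98]), Scd2 at 27.9 and 17.5 (0.67 [0.34, 0.99]), Tm7sf2, a sterol reductase, at 5.41 and 2.85 (0.93 [0.12, 1.66]), and Fasn.

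In the progenitor gate 0 of 26 members were called higher and 7 lower, against 5.77% and 7.43% of all genes. Sqle had 2.00 CPM in Δ/Δ PBS and 6.40 in f/f PBS (-1.68 [-2.48, -0.81]), Msmo1 11 and 18.1 (-0.72 [-1.16, -0.26]) and Idi1 12.0 and 18.8 (-0.65 [-1.07, -0.20]). Lss, the lanosterol synthase, Sc5d, Insig1 and Fads1 were called lower as well, at -0.95, -0.62, -0.59 and -0.79. Of the 7 genes, 5 act between isopentenyl diphosphate and cholesterol, and the f/f PBS values rest on 18 to 53 UMIs each.

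Of the neighbouring lists, whose counts stand against 15.1% of all genes higher and 8.75% lower, sterol regulation and uptake had 0 of 13 members higher and 1 lower. Efflux genes had 0 and 0 of 7, isoprenoid branches 2 and 1 of 14, and fatty acid entry 5 and 2 of 17. The median of the fatty acid entry list was 0.36, against 0.15 over all genes. Acss2, which activates acetate, at -1.36 and Acsl1, which activates long chains, at -1.33 went against that median. Lipid storage had 4 and 6 of 15, from Mogat2, a monoglyceride acyltransferase, at 4.74 and 44.7 CPM (-3.24) to Fabp5, a fatty acid carrier, at 2.02.

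The same genotype labels were compared under chemotherapy in the pair of Δ/Δ Arac+Dox and f/f Arac+Dox. Fasn had 47.4 CPM in Δ/Δ Arac+Dox and 19.1 in f/f Arac+Dox (1.31 [1.23, 1.39]), Elovl6 9.40 and 1.5 (2.65 [2.37, 2.93]), Acaca 18.8 and 11.2 (0.75 [0.63, 0.86]) and Fads1 6.0 and 2.89 (1.05 [0.84, 1.28]). Fdps had 162.8 and 301.4 (-0.89 [-0.92, -0.86]), Fdft1 7.13 and 12.4 (-0.80 [-0.94, -0.66]), Msmo1 11.7 and 18.7 (-0.68 [-0.79, -0.57]) and Sc5d 10.6 and 16.1 (-0.60 [-0.72, -0.49]). Over the whole libraries, all 4 called higher belong to fatty acid synthesis and modification, and all 4 called lower to sterol synthesis. This split was not tested and did not hold in every gate, as given below. The immature neutrophil gate held 4.69% of cells in Δ/Δ Arac+Dox and 41.4% in f/f Arac+Dox. With equal weight for each gate Fdft1, Msmo1 and Acaca fell under 1.5-fold, at -0.37, -0.30 and 0.52. Fasn, Elovl6, Fads1, Fdps and Sc5d stayed past it, at 0.84, 1.77, 1.33, -0.70 and -1.03, and Hmgcs1 and Insig1 reached it, at -0.90 and -0.72. The members called higher and lower were 16% and 16% of 25 measured, against 16.5% and 12.6% of 9278 genes, and the member median was -0.20, against 0.04 over all genes.

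Within gates, Fasn was higher in Δ/Δ Arac+Dox in promyelocytes (51.1 and 20.2 CPM, 1.34 [1.20, 1.49]), monocytes (44.9 and 22.4, 1.0 [0.82, 1.19]) and immature neutrophils (30.0 and 16.6, 0.85 [0.58, 1.11]). Cells with at least 3 cell cycle markers made up 92.2% of the promyelocyte gate in Δ/Δ Arac+Dox and 54.1% in f/f Arac+Dox. They made up 71.9% and 38.5% of monocytes and 83.3% and 61.1% of immature neutrophils. The part of cycling in the ratios within gates was not tested. Elovl6 had 5.04 and 0.394 CPM in promyelocytes (3.68 [2.73, 4.82], the second value from 9 UMIs) and 14.8 and 5.50 in monocytes (1.42 [1.07, 1.80]). Fdps was lower in promyelocytes, at 192 and 398 CPM (-1.05 [-1.09, -1.01]), and in monocytes, at 140 and 256 (-0.87 [-0.94, -0.80]), whereas in immature neutrophils it had 251 and 268 CPM and was not called. Scd2, not called over the whole libraries, was lower in promyelocytes at 31.2 and 48.8 CPM (-0.64 [-0.76, -0.53]). Hsd17b7, of sterol synthesis, was called higher there, at 5.78 and 3.72 CPM (0.64 [0.28, 1.0]). That gate had 4 of 25 members higher and 5 lower, against 11.6% and 18% of all genes.

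In monocytes 4 of 25 members were called higher and 4 lower, against 15% and 17.5% of all genes, the lower ones being Fdps, Mvd, Sc5d at 7.68 and 16.3 CPM and Insig1 at 9.41 and 19.7 CPM. In immature neutrophils 1 of 24 was higher, Fasn, and 8 were lower, against 7.96% and 13.6% of all genes. Ebp had 66.1 CPM in Δ/Δ Arac+Dox and 106 in f/f Arac+Dox there (-0.68 [-0.84, -0.51]), Mvk 5.10 and 10.7 (-1.08 [-1.72, -0.49]), Cyp51 4.90 and 9.52 (-0.96 [-1.62, -0.36]) and Idi1 12.0 and 22.4 (-0.90 [-1.31, -0.52]). Hmgcs1, Fdft1, Acat2 and Insig1 made up the 8. All of these but Insig1 are enzymes of sterol synthesis. The gate held 443 cells in Δ/Δ Arac+Dox and 4035 in f/f Arac+Dox.

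Sterol regulation and uptake had 2 of 14 higher and 1 lower in this pair, against 16.5% and 12.6% of all genes, and efflux genes had 0 and 4 of 8, among them the exporter Abcg1 at -1.37. Isoprenoid branches had 3 and 0 of 14 and fatty acid entry 3 and 4 of 16. Lipid storage had 4 and 5 of 15, with Fabp5 at 137 and 16.8 CPM (3.03).

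**Figure D5:**
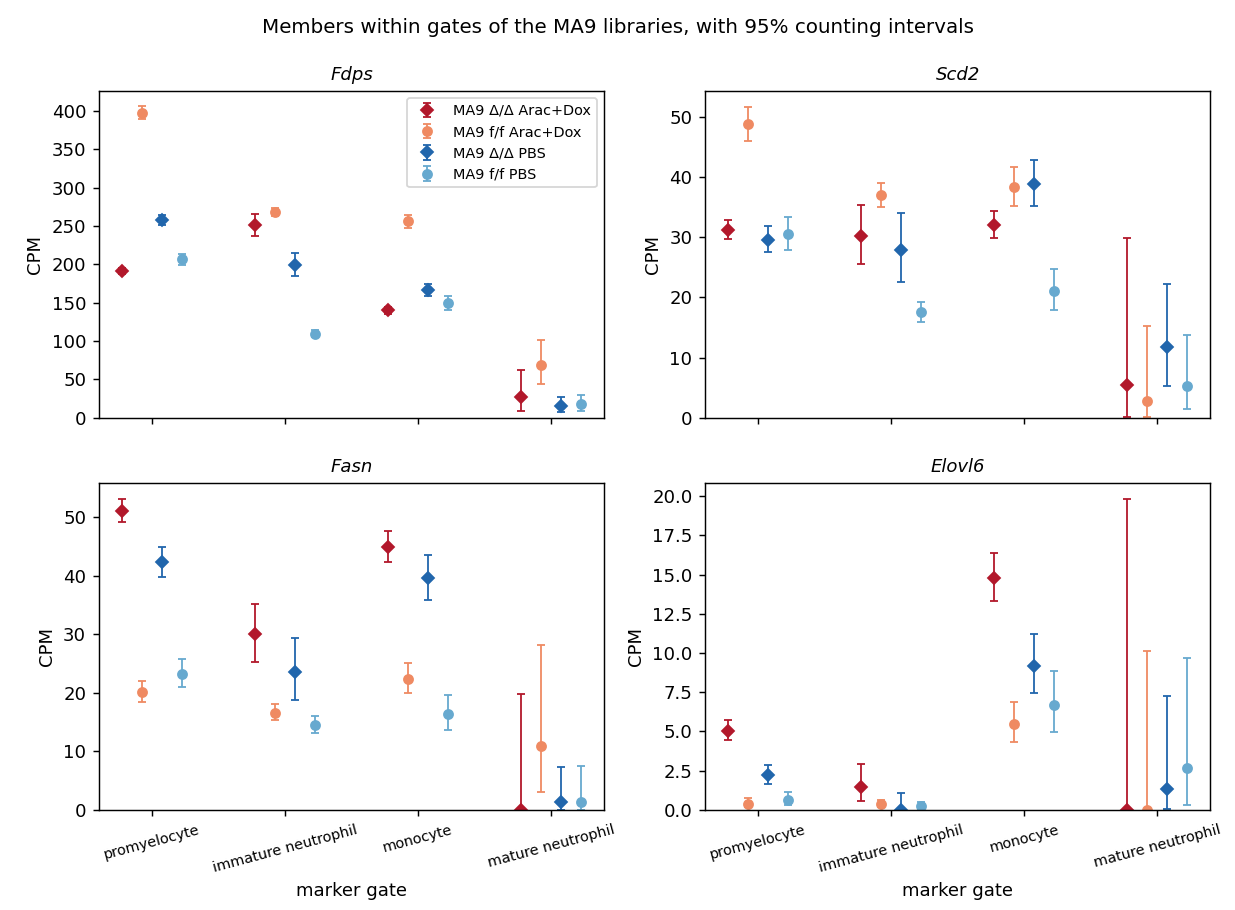
CPM of Fdps, Scd2, Fasn and Elovl6 with 95% counting intervals in the promyelocyte, immature neutrophil, monocyte and mature neutrophil gates of the 4 MA9 libraries. Fdps is at 398 CPM in promyelocytes of the library labelled f/f Arac+Dox, above the other 3 libraries, and Fasn is higher in both Δ/Δ libraries than in both f/f libraries in the first 3 gates.

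In the f/f genotype of MA9, Arac+Dox was set against PBS, as labelled. Fdps had 301.4 CPM in f/f Arac+Dox and 141.6 in f/f PBS (1.09 [1.06, 1.12]), and Scd2 41.3 and 23.6 (0.81 [0.72, 0.89]). They were the only members called among 24 measured, 2 higher (8.33%) and 0 lower, against 1.87% and 3.55% of 9070 genes. The member median was 0.19, against 0.03 over all genes, and 19 of the 24 lay above the median of all genes.

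Both genes were called higher in the promyelocyte, immature neutrophil and monocyte gates of this pair, and Fdps in mature neutrophils as well, where Scd2 had 1 and 4 UMIs and was not called. In promyelocytes Fdps had 398 CPM in f/f Arac+Dox and 206 in f/f PBS (0.95 [0.89, 1.0]), in immature neutrophils 268 and 109.8 (1.29 [1.23, 1.35]) and in mature neutrophils 68.7 and 17.4 (1.98 [0.96, 3.07], from 25 and 13 UMIs). Scd2 had 48.8 and 30.6 CPM in promyelocytes (0.68 [0.52, 0.83]) and 37.0 and 17.5 in immature neutrophils (1.08 [0.92, 1.23]), and these genes were the 2 of 24 members called higher there, with 0 lower, against 2.6% and 3.24% of all genes. The monocyte gate had 5 of 24 members called higher and 0 lower, against 2.65% and 4.60% of all genes: Fdps at 256 and 149 CPM, Scd2 at 38.4 and 21.1, Hmgcs1 at 19.0 and 10.9, Pmvk at 27.4 and 17.3 and Mvk at 12.1 and 7.66. Of these, 4 are enzymes of the mevalonate pathway.

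The immature neutrophil gate held 41.4% of cells in f/f Arac+Dox and 41.1% in f/f PBS, whereas the promyelocyte gate held 23.7% and 18.2%, the monocyte gate 16.6% and 11.6%, the mature neutrophil gate 1.04% and 3.20% and the progenitor gate 0.256% and 3.36%. Cells with at least 3 cell cycle markers made up 49% and 39.2%. The part of composition in these ratios was not tested. Ptpn6 differed between them as given above. Sterol regulation and uptake had 1 of 13 higher and 0 lower, against 1.87% and 3.55% of all genes. The other 4 lists had 0 genes called higher, and only fatty acid entry had any lower, 2 of 17, the elongase gene Elovl7 at -0.83 and Acss2 at -0.67.

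Δ/Δ Arac+Dox was also set against Δ/Δ PBS. Elovl6 had 9.40 CPM in Δ/Δ Arac+Dox and 5.23 in Δ/Δ PBS (0.85 [0.69, 1.01]) and Fads1 6.0 and 3.50 (0.78 [0.58, 0.98]). These 2 of 25 members (8%) were called higher and 0 lower, against 3.56% and 7.41% of 9314 genes. Fdps, at 162.8 and 171.3 CPM, and Scd2, at 34.6 and 43.8, were not called. The member median was 0.09, against -0.07 over all genes.

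Elovl6 was called higher in 3 gates of this pair, at 16 and 6.53 CPM in progenitors (1.29 [0.87, 1.71]), 5.04 and 2.21 in promyelocytes (1.19 [0.76, 1.64]) and 14.8 and 9.17 in monocytes (0.69 [0.36, 1.03]). In monocytes it was the 1 member called of 25, with 0 lower, against 3.27% and 4.34% of all genes. The progenitor gate had 7 of 26 members called higher and 0 lower, against 6.49% and 8.17% of all genes. There Sqle had 6.73 CPM in Δ/Δ Arac+Dox and 2.00 in Δ/Δ PBS (1.75 [1.04, 2.44]), Fads1 9.28 and 4.12 (1.17 [0.61, 1.71]), Fasn 57.8 and 35.4 (0.70 [0.50, 0.91]) and Srebf1 23.0 and 13.9 (0.72 [0.38, 1.05]). Stard4 and Mvd were the others, at 0.67 and 0.63. The gate held 335 and 2078 cells. Immature neutrophils of this pair had 1 of 24 higher and 4 lower, against 4.7% and 7.96% of all genes. Acaca was the 1 higher, at 0.71 [0.09, 1.36], and Hmgcs1, Idi1, Msmo1 and Acat2 were lower, at -0.68, -0.73, -0.60 and -0.81.

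In macrophages of this pair, over 108 and 144 cells, 0 of 28 members were called higher and 2 lower, against 4.99% and 6.67% of all genes. These were Scd2, at 36.9 and 70.8 CPM (-0.94 [-1.67, -0.26]), and Fdps, at 78.3 and 144 CPM (-0.88 [-1.36, -0.41]), the Δ/Δ Arac+Dox value first. Both ratios had the sign of those in the whole libraries, -0.34 and -0.074. Among the lists, sterol regulation and uptake had 2 of 14 higher, against 3.56% of all genes higher and 7.41% lower, with the lipoprotein receptor Lrp8 at 0.62. Efflux genes had 0 higher and 2 lower of 7, Abcg1 at -1.29 and Mylip at -0.97. Isoprenoid branches had 0 and 0 of 14, fatty acid entry 0 and 2 of 16, and lipid storage 3 and 1 of 15, with Dgat2 at 1.48.

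Where both labels differ, in Δ/Δ Arac+Dox against f/f PBS, there were 4 members higher and 2 lower of 26, against 16.8% and 13.4% of 9314 genes. The higher ones were Fasn (1.40), Elovl6 (2.34), Acaca (0.85) and Fads1 (1.21), and the lower ones Fdft1 (-0.64) and Sc5d (-0.67). These values repeat libraries of the pairs above.

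In HM, where both libraries are f/f, Arac+Dox was set against PBS. Hmgcs1 had 10.3 CPM in HM Arac+Dox and 19.1 in HM PBS (-0.89 [-1.10, -0.68]), Msmo1 18.1 and 29.0 (-0.68 [-0.84, -0.51]) and Idi1 9.24 and 14.3 (-0.63 [-0.86, -0.39]). Elovl5 had 17.9 and 8.40 CPM (1.09 [0.82, 1.37]). These made 1 member higher (5%) and 3 lower (15%) of 20 measured, against 28.2% and 19.9% of 8650 genes. With equal weight for each gate 1 was at least 1.5-fold higher and 7 were lower. That count uses the fold alone, without a counting interval, and has no share of all genes beside it, so it is not like the calls. Fdps, at 60.0 and 51.9 CPM, and Scd2, at 14.7 and 13.6, were not called. The mature neutrophil gate held 25.3% of cells in HM Arac+Dox and 44.0% in HM PBS, and HM PBS is the library with most barcodes lost to the mitochondrial limit; their part in these values was not tested.

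Within the HM mature neutrophil gate, Hmgcs1 had 7.29 CPM in Arac+Dox and 19.7 in PBS (-1.44 [-2.0, -0.89]), Msmo1 20.7 and 34.5 (-0.74 [-1.09, -0.38]) and Elovl5 6.61 and 1.36 (2.28 [1.03, 3.81]), against -0.89, -0.68 and 1.09 in the whole libraries. That gate had 4 of 16 members called higher and 4 lower, against 31% and 16.8% of all genes. Cells with both immature and mature neutrophil markers had 1 of 18 higher and 6 lower, against 20.2% and 22.8%, and immature neutrophils 2 of 20 higher and 5 lower, against 11.6% and 28.2%. Msmo1 was not called in immature neutrophils, at 18.1 and 16.3 CPM (0.15), or in monocytes, at 17.1 and 17 CPM (0.01). In monocytes 1 of 25 members was called higher and 8 lower, against 8.48% and 20.4% of all genes. The lower ones spanned both pathways: Idi1 at 7.57 and 20.3 CPM (-1.42 [-2.03, -0.81]), Cyp51 at 10.4 and 23.1 (-1.15 [-1.69, -0.60]), Acaca at 7.71 and 17.5 (-1.18 [-1.81, -0.53]) and Fasn at 20.6 and 34.0 (-0.72 [-1.14, -0.30]), with Dhcr7, Stard4, Scd2 and Elovl6 at -1.14, -0.89, -0.79 and -0.69. Elovl5 was the 1 higher, at 25.9 and 17 CPM (0.61 [0.08, 1.16]). The monocyte gate held 309 cells in Arac+Dox and 170 in PBS.

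In HM, sterol regulation and uptake had 4 of 13 higher and 3 lower, against 28.2% and 19.9% of all genes. Efflux genes had 0 and 0 of 7, isoprenoid branches 1 and 1 of 12, and fatty acid entry 6 and 2 of 14. Lipid storage had 7 and 5 of 15, with Hilpda, a lipid droplet protein, at 72.9 and 3.37 CPM (4.43).

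Insig1 had 26.8 CPM in HM Arac+Dox and 24.9 in HM PBS, and 8.24 to 11.7 CPM in the 4 MA9 libraries. It was called within pairs too, being lower in monocytes of Δ/Δ Arac+Dox than of f/f Arac+Dox, at 9.41 and 19.7 CPM (-1.07 [-1.33, -0.81]), and in HM Arac+Dox cells with both immature and mature neutrophil markers, at 19.6 and 31.1 CPM in HM Arac+Dox and HM PBS (-0.67 [-1.02, -0.31]). In T cells it had 40.9 CPM in HM Arac+Dox, against 5.35 with Arac+Dox and 9.59 with PBS in the MA9 libraries labelled Δ/Δ, and in B cells 32.1 against 7.99 and 6.66. The HM files carry other barcode lengths and feature lists, so model and processing cannot be told apart.

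Likeness between members was described by Spearman's rho over 30 library and gate sums of at least 1e+06 UMIs, among the 23 members with a median of at least 5 CPM. The sums share libraries and depth, and no test is given. Dhcr7 and Acat2 were the pair most alike (0.93), followed by Acaca and Fasn (0.90), Nsdhl and Acat2 (0.89), Mvk and Nsdhl (0.89) and Fdps and Ebp (0.89). Msmo1 ran opposite to Fasn (-0.81) and Acaca (-0.73). The median rho with the other members was 0.62 for Acat2, 0.59 for Scd2 and 0.57 for Fdps, and was below 0 for Insig1 (-0.34), Msmo1 (-0.34) and Sc5d (-0.11) alone.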

How the data were processed

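Droplet 3′ single-cell RNA-seq libraries of marrow from 6 labelled groups, 1 library each, were analysed. The authors deposited raw UMI counts for each gene in each barcode, unnormalised integers, and no deposited barcode had under 500 UMIs. Cell Ranger 3.0.2 is named per the file headers in the MA9 matrices, and for every library, with mm10, per the submitters' processing notes. In the HM matrices no header names software, the feature list is longer (32285 against 31053 in MA9) and a barcode is 17 bases long (16 in MA9). Whether reads were counted by strand is not stated in these sources, so members that overlap a protein-coding gene on the other strand (Fdft1, Cyp51, Acaca, Mvd and Srebf1) may hold its reads.

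Groups were taken from the labels. UMIs were summed over kept cells per library, or per library and gate, and scaled to 1e+06 (CPM) over all genes. Kept cells held 15111411 to 103581646 UMIs per library, and intervals cover counting error only. Gates required at least 3 detected markers (4 for erythroid cells and monocytes), or, for neutrophils, at least 200 immature or 50 mature marker UMIs per 10000, and for promyelocytes at least 100 per 10000. These thresholds were settled after marker values had been seen. Doublets were kept, and removing those called by Scrublet in scanpy 1.11.5 was an alternative. The automatic threshold worked in 2 of 6 libraries, and the mean of those, 0.217, was used in the others.

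Library ratios carry exact Clopper-Pearson 95% intervals (scipy 1.17.1), with a floor of 3 counts where a library had 0. Gates were compared in libraries with at least 50 cells in both, with edgeR 4.0.16 (filterByExpr, TMM, quasi-likelihood, library as a block) in R 4.3.3, adjusting over all genes. The script was tested on simulated data. DESeq2 1.42.0, the fit without the block, and the settings named in the closing section were alternatives. Promoter matches used RefSeq sequences.

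All members could be named. Of the 5 other lists, up to 4 genes per list and comparison with the largest absolute log2 value were named; some genes counted in these lists are not reported here by name. The members and lists were chosen with earlier results of these data known.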

Additional observations from a re-analysis of the deposited data

Results flagged for a closer look

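The members below had log2 ratios of opposite sign in matched pairs of libraries, each with a counting interval that excludes 0. With 1 library per group the differences between pairs were not tested.

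Between the genotype labels, Fdps was 0.28 with PBS (Δ/Δ PBS over f/f PBS) and -0.89 with Arac+Dox (Δ/Δ Arac+Dox over f/f Arac+Dox). For Scd2 the ratios were 0.89 and -0.25 in the same order, and for Elovl5 -0.27 and 0.12. Between Arac+Dox and PBS, Fdps was -0.074 in the Δ/Δ label and 1.09 in the f/f label, and Scd2 -0.34 and 0.81. Smaller ratios of opposite sign were those of Mvk, at -0.18 and 0.25, Nsdhl, at -0.19 and 0.18, and Ebp, at -0.15 and 0.24. The same 4 libraries enter both sets. Ptpn6 goes against 2 of these labels.

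Between the models, Arac+Dox over PBS gave Hmgcs1 0.43 in MA9 f/f and -0.89 in HM, Idi1 0.36 and -0.63, Pmvk 0.50 and -0.32, and Msmo1 0.19 and -0.68. None of the 4 ratios reached 1.5-fold in MA9 f/f, and that of Pmvk did not in HM.

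Scd1 also appeared in B cell gates that were too small for the comparison with T cells. It had 28.2 CPM in the MA9 library labelled f/f Arac+Dox (5 UMIs in 44 cells) and 57.2 CPM in f/f PBS (9 UMIs in 39 cells), both below the 221 to 227 CPM of the larger B cell gates, and no UMI in the T cell gates of the same libraries (24 and 33 cells).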

How the results depend on the processing

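No paired analysis was possible because each group holds 1 library, so the pairs of libraries have no replicate to block on. Gate tests had the library as a block, and without that replicate block edgeR called 14, 14 and 16 members in the progenitor, immature neutrophil and monocyte gates against mature neutrophils, where it called 13, 15 and 14 with it, 0 between cycling and non-cycling cells (1 at an unadjusted p under 0.05, and 4 by DESeq2 with the block), and 1 between B and T cells. For the cycling comparison, 6 members with the block, a fit over all gates together called 3 and leaving out 1 library 3 to 6, with 3 without the library labelled MA9 f/f PBS. For B against T cells, 3 members, DESeq2 called 1, the MA9 libraries alone 5, and leaving out 1 library gave 1 to 5, with 1 without Δ/Δ PBS and 5 without HM Arac+Dox. Leaving out 1 library gave 10 to 14, 11 to 12 and 14 to 16 members in the other 3 tests. Fdps, Scd2, Msmo1 and Sc5d kept their calls there under every alternative run. Stard4 did so too, but the alternatives reuse its low counts in mature neutrophils, so its fold changes still only describe levels. Scd2 likewise has few counts in the mature gates of the MA9 libraries labelled Arac+Dox. Idi1, Nsdhl and Fdft1 lost theirs in immature neutrophils under 11, 9 and 8 alternatives, Fasn under 4, Mvd and Acaca theirs in cycling cells under 7 and 5, and Fdps its call between B and T cells under 7. Calls were gained 49 times over all members and alternatives, most often by Cyp51 in monocytes (7 alternatives), Mvk in progenitors (5), Srebf1 in monocytes (5) and Ebp in progenitors (4).

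Between libraries, a threshold of 2-fold left 2 members (Δ/Δ PBS over f/f PBS, of 5), 3 (Δ/Δ over f/f with Arac+Dox, of 8), 1 (f/f Arac+Dox over PBS, of 2), 0 (Δ/Δ Arac+Dox over PBS, of 2), 1 (HM, of 4) and 3 (Δ/Δ Arac+Dox over f/f PBS, of 6). With no CPM minimum Δ/Δ Arac+Dox over PBS gave 4 and HM 7. Equal weight for each gate, counted by fold alone without a counting interval, gave 1 for Δ/Δ PBS over f/f PBS, 4 for f/f Arac+Dox over PBS and 8 for HM (1 higher and 7 lower). No called value changed sign under any alternative run, and the causes of these changes were not tested. Low depth limits the mature neutrophil and B cell gates, and members under 5 CPM were not compared between libraries.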

Other observations

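Gates outside the tests above held their own patterns, given as levels without a test. In the promyelocyte gates the summed mevalonate genes stood at 273.5 CPM in the MA9 library labelled Δ/Δ Arac+Dox, 500.3 in f/f Arac+Dox, 349.6 in Δ/Δ PBS and 300.7 in f/f PBS, above the whole-library sum in each. Fdps alone made up 192, 398, 258 and 206 CPM of these. Elovl6, by contrast, had 5.04, 0.394, 2.21 and 0.631 CPM there, while in the monocyte gates of the same libraries it had 14.8, 5.50, 9.17 and 6.72 CPM.

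The macrophage gate, defined by C1q genes and read in the 2 libraries labelled MA9 Δ/Δ, had the highest Fads1 of any gate of at least 50 cells, at 16.3 CPM with Arac+Dox and 12.9 with PBS. Fads2, the other front-end desaturase, was near 0 in most gates but had 10.5 CPM in the stem and progenitor gate of HM Arac+Dox (85 cells) and 5.66 in its basophil and mast gate (112 cells), against 0.367 to 0.928 CPM in the progenitor gates of MA9. Srebf2 was highest in B cells of the MA9 libraries, at 62.3 CPM in Δ/Δ Arac+Dox and 73.2 in Δ/Δ PBS, and stood at 25.7 CPM in B cells of HM Arac+Dox.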
